A study of Mus musculus with 4 samples.

Results

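The genes described here are 32 genes of the mouse lysosome: 14 subunits of the vacuolar proton pump (V-ATPase), 14 lysosomal hydrolases, the hydrolase activator precursor Psap, and 3 proteins of the lysosomal membrane, Lamp1, Lamp2 and Mcoln1. They were listed by function, with earlier results of these data known, out of 20923 protein-coding genes with a curated RefSeq transcript. For each gene, the SMAD4 peaks were counted that had one of its transcription start sites (TSSs) as the nearest, or that lay within 50 kb of one. Alveolar macrophages (AMs), which live on the airway side of the alveoli, were collected from 9-week-old wild-type C57BL/6J mice by bronchoalveolar lavage and sorted by flow cytometry. SMAD4 is the common SMAD, which joins the receptor-activated SMADs of TGFβ and BMP signalling. Its binding was profiled by HT-ChIPmentation, where a transposase tags the immunoprecipitated chromatin for sequencing. There were 4 libraries, 2 with the SMAD4 antibody and 2 inputs, and the peak lists of both SMAD4 libraries were analysed. No second condition was compared, and nothing says that the replicates came from separate mice, so differences between them show only the spread between 2 libraries.

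V-ATPase is a rotary pump with a V1 sector in the cytosol that hydrolyses ATP and a V0 sector in the membrane that passes protons into the lysosome. The acid it makes is needed by the hydrolases, which cut the sugars, sulphates and lipids off glycoproteins, glycosaminoglycans and glycolipids. AMs take up surfactant, a mixture of lipids and proteins, and break it down in their lysosomes. Many lysosomal genes carry the CLEAR element in their promoters, a sequence around the E-box CACGTG that is bound by TFEB and its relatives.

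Replicate 1 had 16369 peaks and replicate 2 had 19015, with a median of 17 and 14 fragments stacked at the summit. Peaks of the replicates that overlapped by 1 bp or more were merged into 10964 shared regions. Of 8 AM marker genes, 7 were nearest to a shared region, and of 8 markers of lymphocytes, neutrophils, epithelium, endothelium and fibroblasts, 0 were; a peak near a marker is not a measure of its expression. Fold enrichment is the authors' ratio of the summit fragments to the control level, each plus 1. Both replicates' values are given for each region in place of a mean and SD.

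The summit windows of 6 regions near these genes are printed first, from the RefSeq sequence of GRCm38 (mm10), 5′ to 3′ on the plus strand. They are 201 bases long and centred on the mean summit of a shared region. The 3 promoter windows show what lay at the start of 2 V1 subunit genes and 1 hydrolase gene, and the other 3 are the strongest regions of Galc, Atp6v0a1 and Psap by the smaller of both replicates' folds. They are a part of the strongest regions: those of Atp6v0d2, Atp6v1b2, Manba and Fuca1, and the promoter region of Atp6v0d2, are not printed. Capitals mark any match, on either strand, to the strings TTGCNNAA (C/EBP), AGGAAG (ETS core, which PU.1 binds), TGANTCA (AP-1), CACGTG (E-box), GTCTGG or GTCTAGAC (SMAD). Their positions are Atp6v1a promoter chr16:44139359-44139559, Atp6v1f promoter chr6:29467539-29467739, Galc promoter chr12:98260023-98260223, Galc intron chr12:98210622-98210822, Atp6v0a1 upstream chr11:101008124-101008324 and Psap upstream chr10:60252680-60252880. None of them touched an exon of a curated transcript.
Atp6v1a promoter: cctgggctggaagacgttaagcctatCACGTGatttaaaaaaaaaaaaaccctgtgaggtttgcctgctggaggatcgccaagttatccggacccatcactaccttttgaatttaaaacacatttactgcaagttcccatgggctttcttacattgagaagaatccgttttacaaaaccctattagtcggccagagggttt
Atp6v1f promoter: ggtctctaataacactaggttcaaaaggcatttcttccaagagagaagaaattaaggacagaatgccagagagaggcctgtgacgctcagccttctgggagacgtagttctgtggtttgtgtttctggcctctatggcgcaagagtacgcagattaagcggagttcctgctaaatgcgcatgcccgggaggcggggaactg
Galc promoter: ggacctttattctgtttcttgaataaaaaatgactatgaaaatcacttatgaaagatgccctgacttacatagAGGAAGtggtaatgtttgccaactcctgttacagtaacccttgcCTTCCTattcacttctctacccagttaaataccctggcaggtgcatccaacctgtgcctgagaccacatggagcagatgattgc
Galc intron: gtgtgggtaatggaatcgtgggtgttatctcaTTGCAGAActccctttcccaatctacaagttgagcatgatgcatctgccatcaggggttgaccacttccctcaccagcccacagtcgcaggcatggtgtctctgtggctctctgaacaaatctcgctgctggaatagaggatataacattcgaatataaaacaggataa
Atp6v0a1 upstream: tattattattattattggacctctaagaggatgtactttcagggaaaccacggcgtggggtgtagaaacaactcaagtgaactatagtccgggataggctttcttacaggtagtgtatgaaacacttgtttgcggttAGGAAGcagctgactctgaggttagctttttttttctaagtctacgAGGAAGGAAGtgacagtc
Psap upstream: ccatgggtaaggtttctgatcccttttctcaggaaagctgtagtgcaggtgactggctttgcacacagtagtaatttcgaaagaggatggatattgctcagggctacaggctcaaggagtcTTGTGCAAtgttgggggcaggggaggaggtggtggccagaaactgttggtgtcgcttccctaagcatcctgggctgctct
The Atp6v1a promoter window held the E-box within TCACGTGA, the core of the CLEAR element. The Psap window and the Galc intron window each held 1 C/EBP string. The Galc promoter window held 2 ETS strings, and the Atp6v0a1 window held 3, of which 2 overlap. None of the strings marked in capitals was found in the Atp6v1f window, which says only that these letters are not there.

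SMAD4 regions lay near a larger share of the lysosomal genes than of all protein-coding genes. A shared region had the TSS of 17 of the 32 genes (53.1%) as its nearest, beside 21.5% of protein-coding genes. Genes of similar length would have given 7.40, the sum over the 32 genes of the share among the 500 protein-coding genes nearest in length. Within 50 kb of a TSS, 25 of the 32 genes (78.1%) had a shared region, beside 37.5% of protein-coding genes, and genes of similar length would have given 13.0. In the promoter, from 1 kb upstream to 100 bp downstream of a TSS, 4 genes (12.5%) had a shared region, beside 3.1%, with 1.10 from genes of similar length. These counts are a description of 1 set of cells and have no test. Neither the protein-coding genes nor those of similar length were chosen by expression in AMs, which was not used.

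The closeness held at every distance limit used. The median distance from a gene's TSS to the nearest shared region was 12.8 kb for the 32 genes and 84.7 kb for all protein-coding genes. Within 10 kb, 15 of the 32 genes (46.9%) had a shared region against 14.6% of protein-coding genes, and within 100 kb it was 27 (84.4%) against 54.2%. The 32 genes were longer than the rest, with a median of 24978 bp against 16778 bp. The stretch of chromosome to which a gene's TSSs are the nearest was shorter for them, with a median of 30786 bp against 42253 bp. When that stretch took the place of gene length, genes of similar size would have given 6.17 genes nearest to a shared region.

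**Figure D1:**
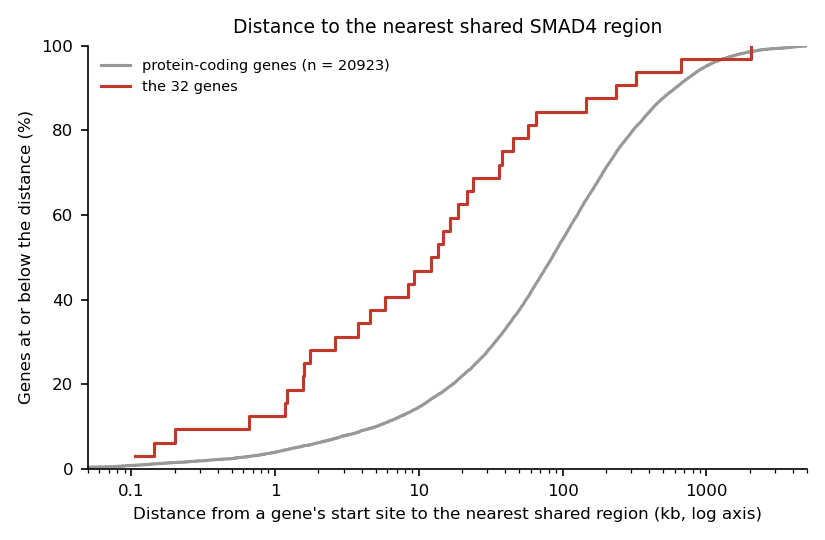
Cumulative share of genes (y axis, percent) against the distance from the gene's closest TSS to the nearest shared SMAD4 region (x axis, kb, log scale), for the 32 lysosomal genes (red) and 20923 protein-coding genes (grey). The red line lies to the left of the grey line over most of the range, with medians of 12.8 kb and 84.7 kb.

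Pump and hydrolase genes both contributed. Of the V-ATPase genes, 8 of 14 (57.1%) were nearest to a shared region, 4 of 6 in the V0 sector and 4 of 8 in the V1 sector, where genes of similar length would have given 3.27 of 14. Of the hydrolase genes it was 6 of 14 (42.9%), with 3.26 from genes of similar length. Lamp1, Lamp2 and Psap also had regions of their own, and Mcoln1 did not. The V-ATPase genes held 22 of the 35 regions, 14 in the V0 sector and 8 in the V1 sector, against 8 for the hydrolases, 3 for Psap and 2 for the membrane proteins. At least 2 regions were nearest to 9 of the 32 genes, beside 9.2% of protein-coding genes, and 2 genes, Atp6v0a1 and Atp6v0d2, had at least 4, beside 2.77%. A region with its summit inside the gene was seen for 9 genes, beside 13.9%.

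**Figure D2:**
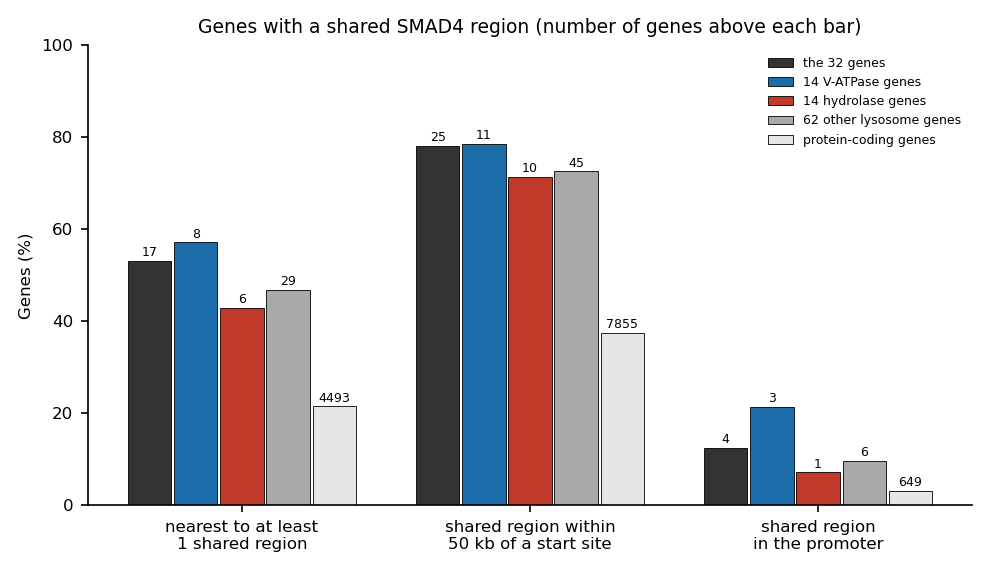
Percent of genes (y axis, from 0) with a shared region by 3 criteria, for the 32 genes, their 14 V-ATPase and 14 hydrolase members, 62 other lysosome and V-ATPase genes, and all protein-coding genes; the number of genes stands above each bar. The protein-coding bars (21.5%, 37.5% and 3.1%) are the lowest of each cluster.

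Among the V0 genes, Atp6v0d2 had the most and the strongest binding. It encodes the d2 isoform of the V0 central stalk, which is found in macrophages, osteoclasts and few other cells, whereas Atp6v0d1 encodes the isoform of most tissues. The gene lies on the minus strand at chr4:19876838-19922566 and had 6 shared regions. The strongest, chr4:19913720-19914746 in an intron 8314 bp downstream of the TSS, had a fold of 23.4 in replicate 1 and 32.9 in replicate 2, from 71 and 72 fragments. It stood among the top 2.17% of all shared regions by the smaller of both folds. A region 4554 bp upstream reached 16.2 and 17.1, and an intronic one 3546 bp downstream reached 11.3 and 14.9. The remaining 3 were weaker: 6.17 and 9.02 at 28123 bp upstream, 5.20 and 7.54 at 27238 bp downstream in an intron, and 4.55 and 8.57 in the promoter, 106 bp upstream. Atp6v0d1, by contrast, had 1 shared region, in an intron 1169 bp downstream of its TSS, with folds of 5.85 and 7.67.

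Atp6v0a1, the a1 isoform of the V0 subunit that forms part of the proton path, had 4 shared regions, all upstream of a TSS and none in the promoter. The closest, chr11:101008004-101008914 at 1216 bp, had folds of 12.2 and 15.9 from 40 and 37 fragments. The next, 6276 bp upstream, had 10.4 and 13.5. The third, at 7399 bp, was the region on which the replicates differed most in the gene, with 11.4 from 34 fragments in replicate 1 and 27.1 from 59 in replicate 2. The fourth, 12656 bp upstream, was near the lower end in both, at 5.52 and 4.96. Atp6v0e, a small V0 subunit, had 3 regions of similar height, with folds of 6.50 to 7.80 in replicate 1 and 9.02 to 9.48 in replicate 2. They lay 35947 to 54951 bp upstream of its TSS and inside introns of the neighbouring gene Ergic1.

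For the other V0 genes, no shared region had their TSS as the nearest. Atp6v0c, part of the proton-carrying ring, had shared regions 21458 and 42818 bp upstream that were nearest to Tbc1d24 and Ntn3, with folds of 7.47 and 10.8 and of 6.56 and 18.95. It also had peaks of its own in replicate 2 alone, 1257 bp upstream with a fold of 7.22 from 15 fragments, and 1583 bp downstream with 4.96 from 10. Atp6v0b, another ring subunit, had no peak in either replicate with its TSS as the nearest, and the nearest shared region was 669 kb away.

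Of the V1 genes, Atp6v1a and Atp6v1b2 encode the catalytic A subunit and the B subunit of the ATP-hydrolysing head. Atp6v1a lies on the minus strand at chr16:44085404-44139259, and its promoter region at chr16:44139236-44139785, the highest of the 4 promoter regions, had folds of 9.42 and 11.3 from 28 and 24 fragments. A weaker region in an intron 18940 bp downstream had 6.50 and 6.32. A further region 1458 bp upstream, with folds of 6.82 and 9.02, lay in an intron of Naa50, 908 bp from the TSS of that gene.

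Atp6v1b2 had 3 shared regions far upstream, with 12.5 and 23.0 at 75948 bp, 10.4 and 10.8 at 77830 bp, and 5.20 and 4.51 at 80630 bp. The highest region inside any of the 32 genes was not counted among them. It lay at chr8:69090650-69091576 in an intron of Atp6v1b2, 2607 bp downstream of its TSS, with folds of 23.7 and 35.8 from 97 and 101 fragments, in the top 2.15% of all shared regions. Its nearest TSS was that of Slc18a1, 2121 bp away. Assignment to the nearest TSS therefore left the strongest region within the gene out of the gene's own count.

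Atp6v1c1, the C subunit that joins the sectors, had regions 8388 and 11078 bp upstream, with folds of 9.10 and 11.3 and of 7.80 and 10.8. Atp6v1f, the small F subunit, had 1 region, in its promoter 144 bp upstream of the TSS, with 6.50 and 8.12 from 19 and 17 fragments. The G subunit gene Atp6v1g1 had none of its own, but a region 9252 bp downstream of its TSS, nearest to Tmem268, was strong in both replicates (18.5 and 17.1 from 56 and 37 fragments). The E subunit gene Atp6v1e1 had 3 shared regions within 50 kb, nearest to Bcl2l13 and Slc25a18, with folds of 4.18 to 6.50 in replicate 1 and 9.48 to 13.5 in replicate 2, and replicate 1 alone had a peak 2227 bp downstream of its TSS with 14 fragments. For the D and H subunit genes Atp6v1d and Atp6v1h there was no shared region within 50 kb. Each had low peaks in replicate 2 alone: Atp6v1d 1 in its promoter with 9 fragments, and Atp6v1h 2, with 11 and 10 fragments.

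**Figure D3:**
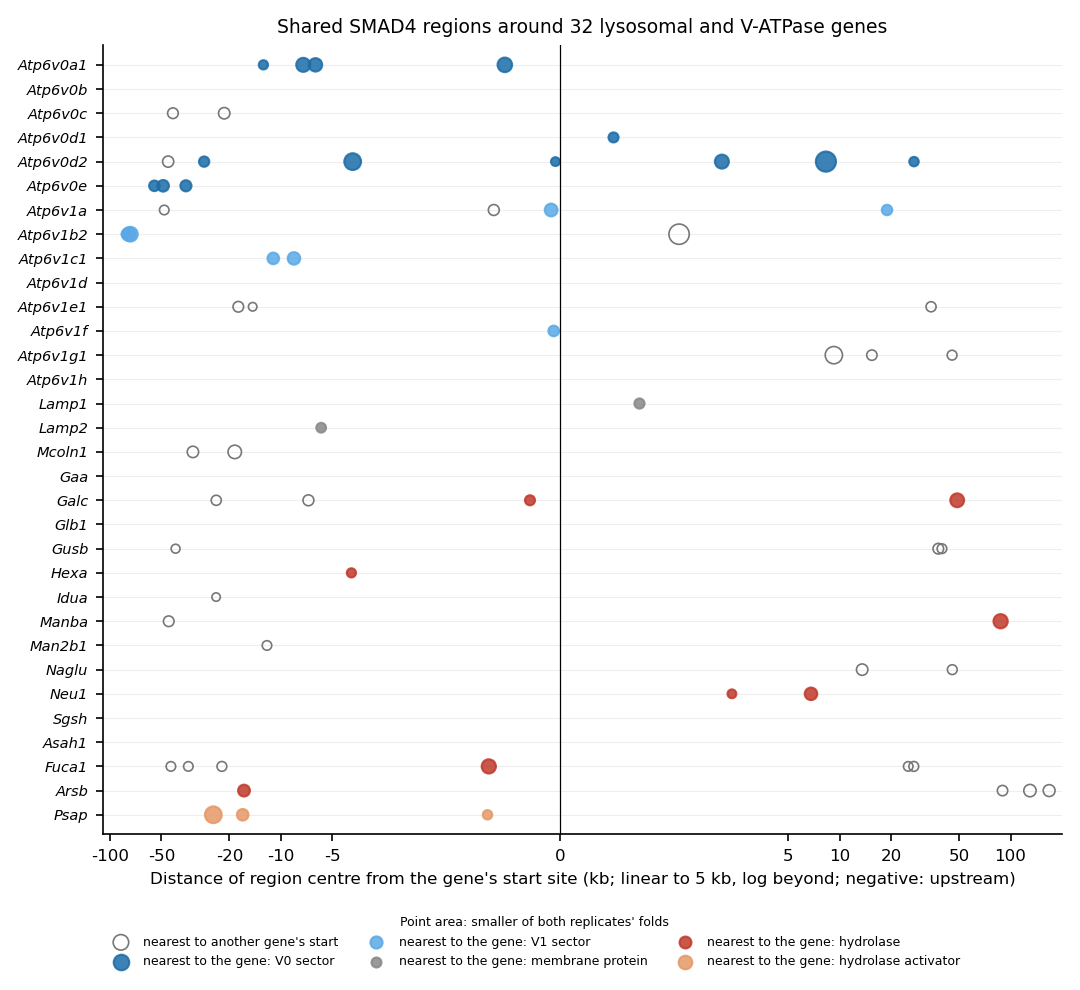
Each row is 1 of the 32 genes and each point a shared SMAD4 region, placed by its distance from the gene's closest TSS (x axis, kb, negative upstream, linear to 5 kb and log beyond), with area in proportion to the smaller of both replicates' folds; filled points have that gene's TSS as the nearest, coloured by role, and open points are nearest to another gene. Atp6v0d2 has 6 filled points, and the largest open point is the intronic region of Atp6v1b2, with folds of 23.7 and 35.8.

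Among the hydrolases, 4 regions reached a fold of 9 in both replicates, and they belonged to Manba, Fuca1, Galc and Neu1. Manba, the lysosomal β-mannosidase, had 1 region, beyond the 3′ end of the gene at 87468 bp from its TSS, with folds of 12.0 and 11.7. Fuca1, the α-fucosidase, had 1 region 1568 bp upstream, at chr4:135918870-135919413, with 11.7 and 13.99 from 35 and 30 fragments, which lay in an exon of the cannabinoid receptor gene Cnr2. Galc, the galactosylceramidase, had an intronic region 48737 bp downstream of its TSS with 11.0 and 11.7, and a promoter region 664 bp upstream with 5.85 and 6.77. Beyond these, shared regions within 50 kb that were nearest to other genes numbered 5 at Fuca1 (folds of 5.20 to 5.52 in replicate 1 and 5.86 to 9.48 in replicate 2), 2 at Galc, both nearest to Gpr65, and 1 at Manba, nearest to Ube2d3. Neu1, the lysosomal sialidase, had a region beyond the 3′ end of the gene, 6801 bp from its TSS, with 9.10 and 15.8. A weak one in an exon of Neu1 had 4.55 and 5.41 from 13 and 11 fragments.

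Arsb, the arylsulfatase that acts on dermatan and chondroitin sulphate, had 1 region of its own, 16436 bp upstream, with 8.12 and 11.3. Like Atp6v1b2, it held further regions inside the gene that were nearest to other genes: 3 intronic ones with folds of 6.17 to 8.77 in replicate 1 and 8.57 to 18.5 in replicate 2. Hexa, the α subunit of β-hexosaminidase, had 1 region 4582 bp upstream, and replicate 1 was the higher there, with 7.59 against 4.91. Replicate 2 had a further peak 5482 bp upstream of Hexa with 18 fragments, which, with a peak of Atp6v1c1 of equal height, was the most of any peak near these genes that did not overlap one of the other replicate.

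The other 8 hydrolase genes had no region of their own. Gusb (β-glucuronidase), Idua (α-iduronidase), Man2b1 (α-mannosidase) and Naglu (N-acetyl-α-glucosaminidase) had shared regions within 50 kb, nearest to Vkorc1l1, Crcp, Tmem175, Dhps, Coasy and Retreg3. The lowest of these was the region near Idua, in an intron of Tmem175, with folds of 4.87 and 4.06 from 14 and 8 fragments. Gusb also had a peak of each replicate in the same stretch, 24308 and 24541 bp downstream of its TSS, with 15 and 12 fragments, which did not overlap. Gaa (α-glucosidase), Glb1 (β-galactosidase), Sgsh (heparan N-sulphatase) and Asah1 (acid ceramidase) had no shared region within 50 kb. The nearest was 64.7 kb away for Glb1 and 321 kb away for Asah1. Sgsh had 1 peak in replicate 2 alone, 536 bp downstream of its TSS, with 10 fragments. Neighbouring members share a surrounding: Naglu begins 6374 bp after the end of Atp6v0a1, and Sgsh lies 58030 bp from Gaa.

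Psap, whose product is cut into the saposins that present glycolipids to the hydrolases, had 3 regions. The one at chr10:60252554-60253029, 24848 bp upstream, had folds of 16.2 and 18.0 from 49 and 39 fragments and was in the top 7.07% of all shared regions. Another 16734 bp upstream had 7.80 and 9.02, and one in an intron, 1596 bp upstream of the gene's second TSS, had 5.20 and 6.77. Of the membrane proteins, Lamp1 had 1 intronic region 1738 bp downstream with 5.97 and 9.02, and Lamp2 had 1 region 5812 bp upstream with 5.52 and 9.48. Mcoln1, the calcium channel TRPML1, had shared regions 18621 and 32713 bp upstream, nearest to Tex45 and Pex11g, with folds of 10.4 and 12.2 and of 7.47 and 9.02.

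The 2 replicates were also read alone. Replicate 1 had a peak nearest to 19 of the 32 genes, beside 27.2% of protein-coding genes, and replicate 2 to 23, beside 31.2%. Of the 44 peaks nearest to these genes in replicate 1, 79.5% overlapped a peak of replicate 2, and of the 60 in replicate 2, 61.7% overlapped one of replicate 1; over all peaks it was 69.4% and 59.2%. The 32 peaks without an overlap had 8 to 18 fragments. At 8 genes, Atp6v0b, Atp6v1g1, Mcoln1, Glb1, Idua, Man2b1, Naglu and Asah1, neither replicate had a peak with the gene's TSS as the nearest.

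In the promoters the replicates differed. Replicate 1 had a promoter peak at 4 genes, beside 3.59% of protein-coding genes, and these were the 4 genes with a shared promoter region. Replicate 2 had one at 8 genes, beside 6.5%. The other four were Atp6v1d, Gaa, Gusb and Lamp2, with folds of 4.51, 5.87, 4.51 and 4.06 from 9, 12, 9 and 8 fragments. The lowest peaks of the lists had 9 fragments in replicate 1 and 7 in replicate 2, so that these promoter peaks lay close to what could be detected.

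**Figure D4:**
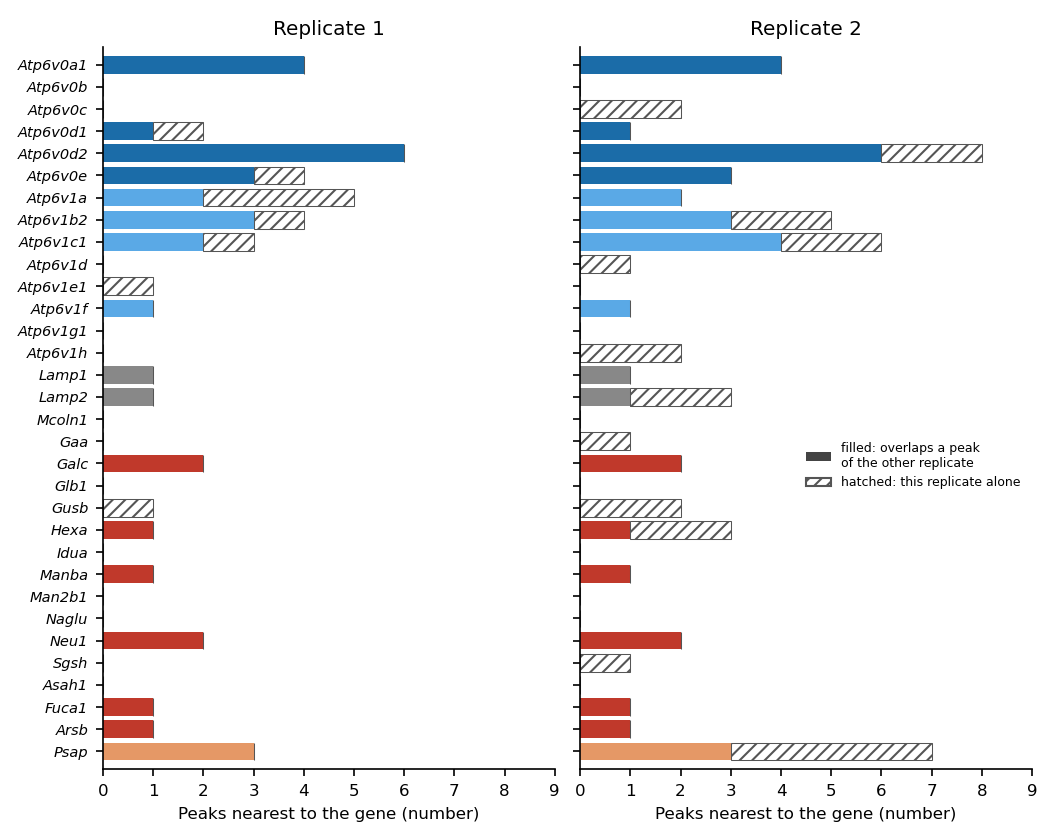
Number of SMAD4 peaks nearest to each of the 32 genes (x axis) in replicate 1 (left) and replicate 2 (right), with bars filled and coloured by role where the peak overlapped one of the other replicate and hatched where it did not. Atp6v0d2 has 6 peaks in replicate 1 and 8 in replicate 2.

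Over the 35 regions the folds of the replicates ranked alike, with Spearman's rho of 0.889, against 0.782 over all 10964 shared regions. The points share 2 libraries and a lower limit set by peak calling, so this is a description. The median fold was 7.80 in replicate 1 and 9.48 in replicate 2, next to 6.82 and 9.48 over all shared regions. Of the 35 regions, 3, from Atp6v0d2 (2) and Psap (1), were in the top 10% of all. Replicate 2 had the higher fold in 30 of 35 regions (85.7%), as in 87.2% of all. The 5 exceptions were 1 region each of Atp6v0a1, Atp6v1a, Atp6v1b2, Hexa and Manba. The most common control level was 2.08 in replicate 1 and 1.22 in replicate 2, and equal fragments give a higher fold over a lower control level. In fragments, the median of the 35 regions was 23 in replicate 1 and 20 in replicate 2, so the higher folds do not mean more fragments.

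**Figure D5:**
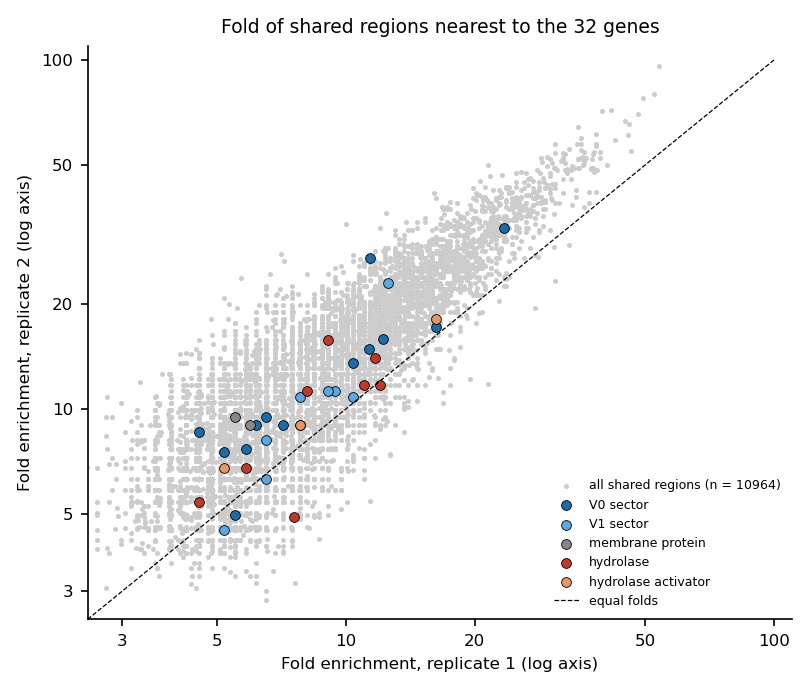
Fold enrichment in replicate 2 (y axis) against replicate 1 (x axis), both on log axes, for all 10964 shared regions (grey) and the 35 nearest to the lysosomal genes (coloured by role); the dashed line marks equal folds. Of the coloured points, 30 lie above the line, and the highest, of Atp6v0d2, is at 23.4 and 32.9.

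The regions near lysosomal genes lay mostly upstream of the TSS. Their median distance to the TSS was 8314 bp, against 18040 bp over all shared regions. Of the 35 regions, 25 (71.4%) lay upstream of the TSS, against 43.8% of all. By annotation, 17 were intergenic (48.6% against 40.5%), 11 intronic (31.4% against 49.3%), 4 in promoters (11.4% against 6.42%), 2 exonic and 1 at a transcript end. Of the 35, 8 lay in an intron of the gene to which they were assigned, and a region of Neu1 lay in an exon of that gene. The region at a transcript end lay past the end of Neu1. Since several regions belong to 1 gene, with 27 of the 35 at 9 genes, they are not independent of each other.

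The strings under the summits were counted beside those of all shared regions. A C/EBP string was found in 12 of the 35 windows (34.3%), against 40.9% of all shared regions, an ETS string in 14 (40.0% against 41.3%), and the longer PU.1 string GAGGAAGT, which contains it, in 3 (8.57% against 8.0%). AP-1 was in 5 windows (14.3% against 12.3%). TGTGGT (RUNX) was in 14 windows, or 40.0% against 26.4%. The SMAD string GTCTGG was in 2 windows, both of Atp6v1c1 (5.71% against 11.2%), and GTCTAGAC and GGCGCC, a GC-rich SMAD string, in 0 (0.465% and 1.01% of all). STAT5 (TTCNNNGAA), the nuclear receptor string AGGTCA and the RBPJ string TGGGAA were in 3, 4 and 7 windows, or 8.57%, 11.4% and 20% against 8.06%, 15.4% and 18.9%. The median GC content was 43.3%, against 43.8%.

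The E-box exceeded its share over all promoters in these genes' promoters, but not its share over all shared regions in the summit windows. RefSeq promoter sequences (GRCm38, 300 bases around the TSS) were at hand for 26 of the 32 genes, 29 sequences in all. The genes without one were Asah1, Atp6v0d2, Atp6v1b2, Atp6v1c1, Atp6v1g1 and Atp6v1h. CACGTG was in 10 of the 29 (34.5%), against 7.15% of all 32851 promoters, and TCACGTGA in 4 (13.8% against 0.974%), those of Atp6v0d1, Atp6v0e, Atp6v1a and Mcoln1. Under the summits, the E-box was in 1 of the 35 windows (2.86%), that of the Atp6v1a promoter printed above, against 3.65% of all shared regions. Of the 10 genes with an E-box in the promoter sequence, 1, Atp6v1a, had a shared region in its promoter. Over all 32 genes it was 4 (12.5%), but these include Atp6v0d2, which had no promoter sequence. The sequences of 300 bases were also shorter than the promoter used for the regions.

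A further 62 lysosome and V-ATPase genes were also listed by function, with earlier results of these data known. Of these, 29 (46.8%) were nearest to a shared region, where genes of similar length would have given 14.2. Within 50 kb it was 45 of 62, with 25.3 from genes of similar length, and in the promoter 6, with 2.19. By role, the genes nearest to a shared region, beside the 21.5% of protein-coding genes, were 3 of 11 V-ATPase genes (27.3%), 9 of 24 hydrolases or activators (37.5%), 10 of 17 membrane proteins or transporters (58.8%), 4 of 6 genes of sorting or processing and 3 of 4 regulators. At least 4 regions were nearest to 4 of the 62 genes (6.45%), beside 2.77% of protein-coding genes. They were Mitf (8) and Tfec (7), which encode relatives of TFEB, Gnptab (6), which encodes the enzyme that makes the sorting tag of hydrolases, and the V1 subunit gene Atp6v1g3 (4). Within 50 kb of a TSS, Mitf had 5 shared regions, Tfec 4, Gnptab 9 and Atp6v1g3 4. The strongest region nearest to Mitf lay 100583 bp from its TSS, and the strongest nearest to Atp6v1g3 lay 49140 bp from its TSS. The strongest region of Gnptab had folds of 23.4 and 30.2.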

How the data were processed

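Peak lists of 2 SMAD4 HT-ChIPmentation libraries of AMs were used; the 2 input libraries enter through the control level. Reads were cut with Cutadapt and mapped to mm10 with Bowtie2 by the authors, duplicates were taken out, and MACS3 called each sample's peaks against input (q-value up to 0.05). For each peak the authors deposited a fold ratio over the control, a −log10 p-value, a −log10 q-value and a score, which was not used.

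Summit fragments and control level were solved from the fold and the p-value, and all were whole within 0.02 fragments. TSSs came from 45657 curated RefSeq transcripts of 26089 genes (GRCm38), and coordinates are 1-based. A region's summit was the mean of the strongest summit of each replicate. Features were assigned as promoter, transcript end (100 bp upstream to 1000 bp downstream), exon, intron or intergenic. No test was made, since there was 1 condition. Every gene of the list was accounted for, with values for each that had a shared region nearest to its TSS, in its promoter or overlapping it; other genes were named where their TSS was nearest to a shared region within 50 kb of a listed gene, and further lysosome genes where they had at least 4. Ergic1 was named after its values were seen, as the gene that holds regions of Atp6v0e. The 32 genes, the further list, the markers and the strings were chosen with earlier results of these data known. Motif windows were 100 bp each side of the summit. Depth in reads was not used here, and the fragments at a summit are the only depth given. Alternatives were stricter overlap, q and fold limits, other TSS sets, distance and promoter limits, each replicate alone, other numbers of genes of similar length and other windows. The computation was checked on simulated peaks. Python 3.11.15, numpy 2.4.6, pandas 2.3.3, scipy 1.17.1, pysam 0.24.0 and matplotlib 3.10.9 were used.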

Additional observations from a re-analysis of the deposited data

How the results depend on the processing

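Of 59 alternative values, 48 stayed within 1.5 times the reported count (or, for the shares over all genes, within the spread between replicates), and 11 did not. The 17 genes nearest to a shared region became 16 with 50% reciprocal overlap (beside 18.8% of protein-coding genes), 14 with summits within 100 bp (18.7%), 16 with folds of at least 5 (17.9%), and 12 when predicted transcripts were added (18.2%). With each replicate alone, the count was 19 to 23 genes nearest to a peak, 25 to 30 genes within 50 kb, 44 to 60 peaks, and 4 to 8 genes in the promoter, the higher value in replicate 2 each time. Genes with a region within the distance limit were 15 at 10 kb. A promoter of 3 kb either side gave 10 genes, beside 7.84% of protein-coding genes, and with replicate 2 alone 17, beside 13.4%. This last alternative and the size of the surrounding stretch were chosen after seeing the data. The E-box was in 0 windows of 50 bp each side and in 2 of 200 bp. AP-1 was in 11 windows at 200 bp (31.4% against 19.5% of all) and in 3 at 50 bp (8.57% against 6.73%). AGGTCA was also in 11 at 200 bp (31.4% against 26.6%), on the other side of the share over all regions than at 100 bp. At 200 bp, RUNX stayed above that share (51.4% against 38.9%), and C/EBP (42.9% against 49.7%) and ETS (48.6% against 58.1%) stayed below it. Genes of similar length gave 7.38 with 100 genes and 7.58 with 1000. No paired analysis was possible because the result comes from no test and there is 1 group of SMAD4 libraries. Depth limits these counts: 8 of the 35 regions had fewer than 15 fragments in a replicate, and a promoter without a peak may hold binding below 7 to 9 fragments.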
